A study of Mus musculus with 2 samples.

Results

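The 10 genes described here encode the receptors and the first cytoplasmic relay of Wnt signalling in the mouse uterus. They are the Frizzled receptors Fzd1, Fzd2 and Fzd7, the co-receptors Lrp5 and Lrp6, the kinase-like receptors Ror1 and Ror2, and the Dishevelled adaptors Dvl1, Dvl2 and Dvl3. They were chosen by name, and all 10 were among the 32285 genes listed in both libraries. Whole uteri of female C57BL/6J mice aged 6 months were digested to single cells, and transcript 3′ ends were sequenced cell by cell in droplets. All mice carried floxed alleles of Prickle1 (Prickle1 f/f), a core component of planar cell polarity signalling. The control group carried nothing further by its label, and the conditional knockout group (cKO) also carried Ltf-cre, a Cre recombinase driven by the lactoferrin gene, which is active in adult uterine epithelium. The labels' genotype field reads wild-type for both samples, unlike the titles, which set the groups here. The 3 mice of a group were pooled into 1 library. Without replicates no test was possible, and genotype cannot be told apart from animals, dissociation or library.

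A barcode counted as a cell when it held 500 or more genes and no more than 20% of its unique molecular identifiers (UMIs) were mitochondrial, which left 3653 control and 4950 cKO cells. A cell entered a class when it held at least 1 UMI of that class's gate gene and none of any other's. The gates were Epcam for epithelial, Pdgfra for stromal, Actg2 for muscle, C1qa for macrophage, Cd3e or Ncr1 for lymphoid and Msln for mesothelial cells. In control and cKO these held 947 and 103 epithelial, 621 and 1469 stromal, 290 and 537 muscle, 231 and 112 macrophage, 158 and 435 lymphoid, and 26 and 32 mesothelial cells. A further 1201 and 1998 cells held no gate gene, and 179 and 264 held those of several classes. Every marker of each class's own list was detected in that class in both libraries. Median depth ran from 1505.5 UMIs in control muscle cells to 15694 in cKO stromal cells, and 5 barcodes passed as cells in both libraries.

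The epithelial and mesothelial classes carry limits that touch each of their values. In cKO epithelial cells the 10 deepest cells held 51.9% of all UMIs, against 8.81% in control. The same cells held B or plasma cell markers at a summed 2003 CPM (counts per 1000000 UMIs of the class) against 6.35 in control, nearly all of it Jchain with 6038 of 6098 UMIs, muscle markers at 566 against 52.4 and lymphoid markers at 376 against 13.8. Mesothelial cells held stromal markers at 10451 CPM in control and 14098 in cKO, beside 11896 and 12155 CPM in the stromal class. They also held epithelial markers at 1575 CPM in control and 1161 in cKO, and lymphatic endothelial markers at 0 and 457 CPM. Their own markers summed to 1470 and 2084 CPM, against 87.4 and 96.4 in stroma. Their 10 deepest cells held 76.9% and 61.1% of UMIs. The part of these features in the results was not tested. Prickle1 itself was too rare in epithelial cells to check the labels: 14 UMIs in control, or 0.831 CPM (0.454 to 1.39), and 4 in cKO, or 1.31 CPM (0.358 to 3.36). It was higher in cKO in 2 other classes and over all cells, at 3.85 and 9.05 CPM in stroma (2.35, 1.61 to 3.54), 5.01 and 29.0 in lymphoid cells (5.79, 2.16 to 21.8) and 2.65 and 8.24 over all cells (3.11, 2.49 to 3.90), while in muscle (1.05, 0.460 to 2.60) and in cells with no gate gene (0.926, 0.588 to 1.49) the intervals included 1. Its 3′ reads also need not come from the deleted part of the gene.

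Wnt ligands bind the cysteine-rich domain of a Frizzled receptor, and recruitment of Lrp5 or Lrp6 beside it stabilises beta-catenin. Ror1 and Ror2 bind Wnt5a-type ligands and act mainly through routes that do not need beta-catenin, including planar cell polarity, in which Prickle proteins oppose the Frizzled and Dishevelled complex across a cell boundary. Dishevelled proteins sit under Frizzled and serve both routes. In the uterus, Wnt signalling between stroma and epithelium is known for its roles in gland formation and in preparing for implantation.

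Of the 10 genes, 7 had a promoter in the RefSeq table (GRCm38.p6), and 3 are shown: those of Ror2 and Fzd1, the pair whose levels were most alike over the classes, and that of Dvl1, detected in every class. Each is the 250 bases before the RefSeq transcription start, 5′ to 3′ on the gene's strand. For Fzd1 this start lies 181 bases upstream of the gene start given below, and for Ror2 and Dvl1 both starts are the same. Capitals mark matches on either strand to the GC box (GGGCGG), the TATA box (TATAAA) or the TCF/LEF core (CTTTGA), and matches may overlap.
Ror2, chr13:53286125-53286374, minus strand: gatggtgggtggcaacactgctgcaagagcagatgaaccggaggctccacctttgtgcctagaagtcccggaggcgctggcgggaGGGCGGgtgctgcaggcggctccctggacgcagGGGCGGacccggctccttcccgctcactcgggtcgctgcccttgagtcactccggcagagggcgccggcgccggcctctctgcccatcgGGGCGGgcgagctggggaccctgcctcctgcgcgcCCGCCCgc
Fzd1, chr5:4758217-4758466, minus strand: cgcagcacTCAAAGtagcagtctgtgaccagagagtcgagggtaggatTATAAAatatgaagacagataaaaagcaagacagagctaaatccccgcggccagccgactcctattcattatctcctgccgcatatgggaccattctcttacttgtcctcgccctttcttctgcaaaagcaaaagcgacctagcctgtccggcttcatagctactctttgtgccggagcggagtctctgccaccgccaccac
Dvl1, chr4:155847152-155847401, plus strand: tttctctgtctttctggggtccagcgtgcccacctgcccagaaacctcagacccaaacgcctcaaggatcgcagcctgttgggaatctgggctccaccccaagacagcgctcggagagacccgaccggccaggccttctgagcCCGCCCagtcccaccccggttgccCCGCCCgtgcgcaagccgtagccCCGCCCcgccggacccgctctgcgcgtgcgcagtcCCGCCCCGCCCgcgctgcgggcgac
The Ror2 window held 4 GC box matches and 73.2% G or C, and the Dvl1 window held 5 and 71.2%. The Fzd1 window held 1 TATA and 1 TCF/LEF match, no GC box match, and 51.2% G or C. Over 32851 promoter windows of the same length, 32.7% held a GC box match, 12.4% a TATA match and 13.8% a TCF/LEF match, and the median G or C content was 52.4%. Ror2 and Dvl1 thus lay among the G- and C-rich promoters, above the 90th percentile of 69.2%, and Fzd1 lay near the median. A match is only a run of letters in this window and says nothing of binding.

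Levels are CPM of all UMIs summed over the cells of a class in 1 library, with exact Poisson 95% intervals in brackets. In these 3′ libraries each UMI counts 1 transcript whatever its length, so CPM values can be set beside each other between genes, apart from differences in capture. Ratios are cKO over control with exact 95% intervals, and all intervals cover counting error only. Where a count was 0, the limit given is the value that 3 counts would have had, which lies below the upper end of the exact interval. Among the 60 pairs of a gene and a class, 42 had at least 20 UMIs over both libraries and were compared, and 18 did not. Of the 42, 4 were at least 2-fold higher in cKO, 2 were at least 2-fold lower and 36 lay between.

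**Figure D1:**
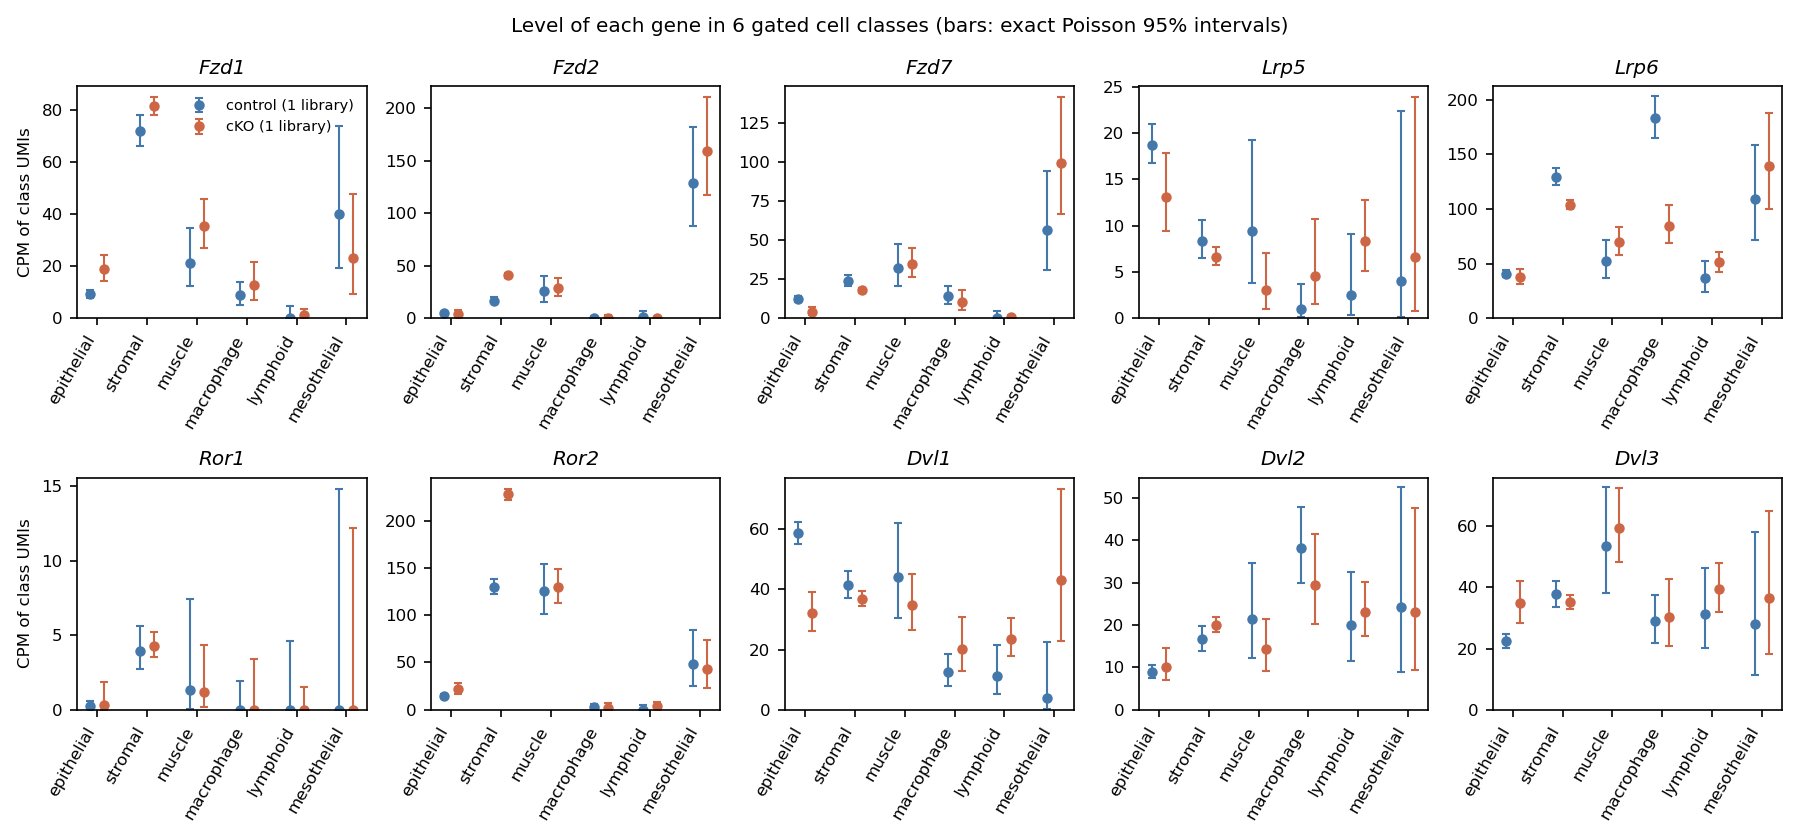
CPM of each of the 10 genes (y axis, each panel from 0) in 6 gated classes (x axis), with control in blue and cKO in orange, 1 library each. Bars are exact Poisson 95% intervals. Ror2 stood at 130 CPM in control and 228 in cKO stromal cells, and Fzd2 at 129 and 159 CPM in mesothelial cells.

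Fzd1 (ENSMUSG00000044674, GRCm38 chr5:4753839-4758035, minus strand, 1 exon) had its highest level in stroma in both libraries. Its stromal level was 72.1 CPM (66.4 to 78.3) in control and 81.5 CPM (78.1 to 85.1) in cKO. Muscle cells held 21.4 CPM in control and 35.5 in cKO, and mesothelial cells had 40.3 and 23.2 CPM on 10 and 7 UMIs. In control the order was stromal, mesothelial, muscle, epithelial, macrophage and lymphoid, and of the neighbours in that order only muscle over epithelial (2.30-fold, 1.28 to 3.85) and macrophage over lymphoid were apart beyond counting error. Lymphoid cells held 0 UMIs in control, a limit of 3.76 CPM by 3 counts and an exact upper end of 4.62, and 3 UMIs in cKO.

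In epithelial cells Fzd1 stood at 9.32 CPM (7.92 to 10.9) in control and 18.7 CPM (14.2 to 24.3) in cKO. The ratio was 2.01 (1.46 to 2.74), which made Fzd1 1 of 9 genes compared there that was at least 2-fold higher, where 25.5% of all 12632 genes compared in epithelial cells were. The median log2 ratio of all genes in this class was 0.39, and that of the 9 compared here was -0.12. One cKO cell supplied 22.8% of the 57 UMIs, and the mean over cells of each cell's CPM gave a log2 ratio of -0.14 in place of 1.01. Under TMM scaling the ratio was short of 2-fold. In cells with 2 or more Epcam UMIs the ratio was 2.17 (1.54 to 3.01), and in those with 1 it was 0.952 (0.334 to 2.42).

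Fzd2 (ENSMUSG00000050288, chr11:102604396-102608058, plus strand, 1 exon) was highest in the Msln-gated mesothelial class, which also held stromal markers at 10451 and 14098 CPM. Mesothelium lines the outer uterine surface. Fzd2 stood there at 129 CPM (88.2 to 182) in control and 159 CPM (117 to 211) in cKO, and 12 of 26 and 20 of 32 cells held a UMI. That was 7.69-fold (5.06 to 11.4) the stromal level in control and 3.90-fold (2.86 to 5.21) in cKO. The ratio between libraries within mesothelial cells was 1.23 (0.772 to 1.99), so no difference was detectable at this depth. None of the 4 genes compared in this class passed 2-fold in either direction, where 10.6% of all genes were higher and 3.97% lower.

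In stroma Fzd2 was the gene furthest from equal between the libraries. Control stromal cells held 135 UMIs, or 16.8 CPM (14.1 to 19.8), and cKO stromal cells 1039 UMIs, or 40.7 CPM (38.3 to 43.2). The ratio was 2.43 (2.03 to 2.93), the only one of 10 in stroma past 2-fold, where 6.24% of all 13536 genes compared were at least 2-fold higher and 6.46% lower. No gene of the 10 was 2-fold lower there, and their median log2 ratio was 0.00 beside -0.02 over all genes. The Fzd2 UMIs were unevenly spread: 81 of 1469 cKO cells held 4 or more, up to 43 in 1 cell, against 4 of 621 control cells. Thinned to 1000 UMIs each, 2.45% (1.38 to 4.02) of control and 3.84% (2.91 to 4.96) of cKO stromal cells held a Fzd2 UMI, against 14.0% and 24.3% before thinning, and no lymphoid cell of either library did. Thinning left out the shallower cells and kept 611 of 621 and 1458 of 1469. The intervals of the thinned shares overlap, and the log2 ratio of thinned sums was 0.64 in place of 1.27. Fzd2 was low in epithelial cells, at 4.93 CPM in control and 4.27 in cKO, and macrophages held 0 UMIs in both libraries, limits of 1.55 and 2.76 CPM by 3 counts and exact upper ends of 1.91 and 3.40.

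Fzd7 (ENSMUSG00000041075, chr1:59482424-59486955, plus strand, 1 exon) was found in every class, with only 1 UMI over both lymphoid libraries. In control it ran from 12.2 CPM in epithelial and 14.0 in macrophage cells to 23.7 in stromal, 32.1 in muscle and 56.4 in mesothelial cells. Only stromal over macrophage (1.70-fold, 1.13 to 2.65) and epithelial over lymphoid were apart among neighbours in that order. In cKO the mesothelial value was 99.3 CPM, but 1 cell supplied 73.3% of its 30 UMIs. In stroma Fzd7 was lower in cKO, at 17.9 CPM (16.3 to 19.6) against 23.7 (20.5 to 27.3), a ratio of 0.755 (0.636 to 0.898).

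Epithelial Fzd7 was 12.2 CPM (10.6 to 14.0) on 205 UMIs in control and 3.94 CPM (2.04 to 6.89) on 12 UMIs in cKO. The ratio was 0.324 (0.165 to 0.578), and it was the only one of the 9 compared that was at least 2-fold lower, where 11% of all genes were. In cells with 2 or more Epcam UMIs the ratio was 0.257 (0.109 to 0.516), and in those with 1 it was 0.578 (0.141 to 1.79). Without the exclusion of cells holding another class's gate gene, however, the log2 ratio was 0.54 in place of -1.57, the 1 of 12 alternatives that turned its direction.

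**Figure D2:**
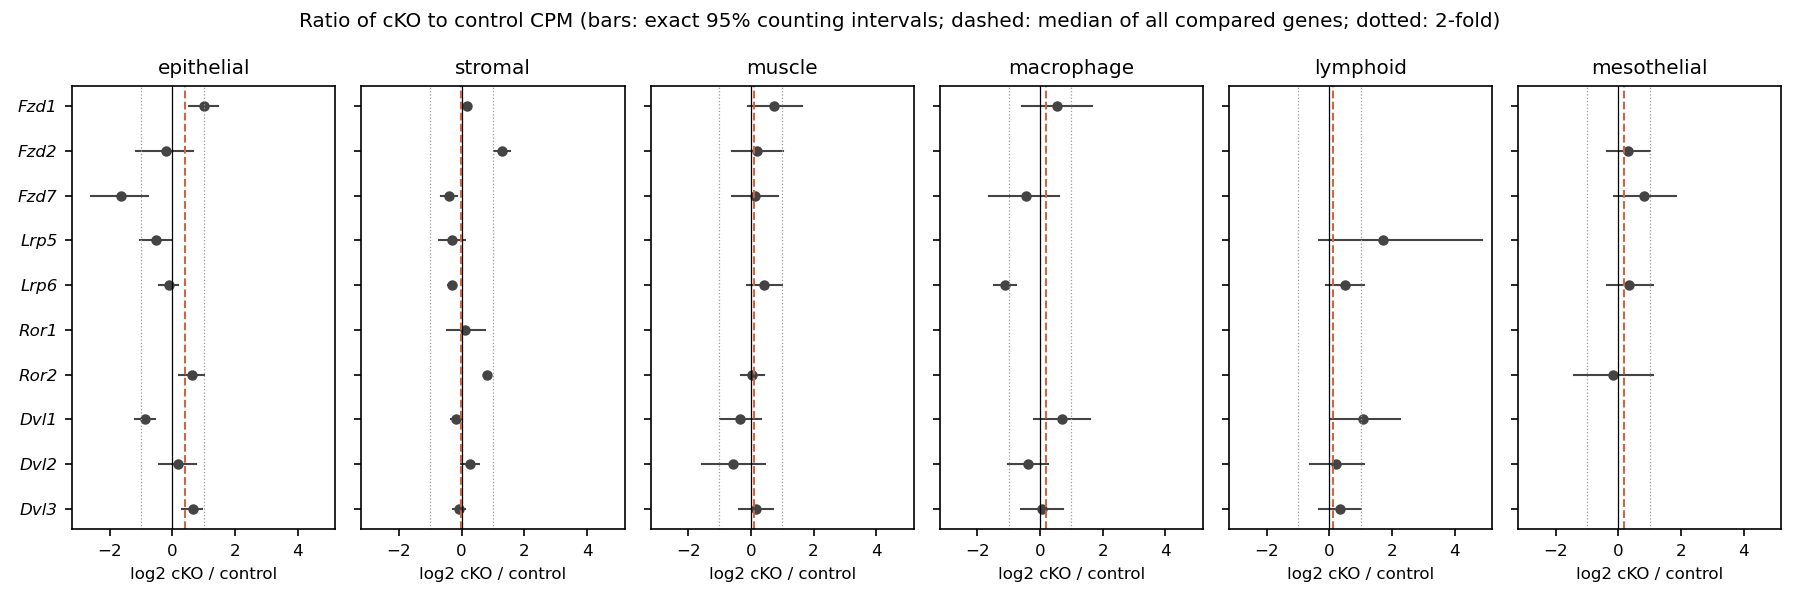
Log2 ratio of cKO to control CPM (x axis) of the compared genes (y axis) in each class, 1 library per group, with exact 95% counting intervals. The dashed line is the median of all genes compared in the class, and dotted lines mark 2-fold. Fzd2 in stroma, at a ratio of 2.43 (2.03 to 2.93), lies past 2-fold with its whole interval. Lrp6 in macrophages, at 0.462 (0.363 to 0.583), lies past 2-fold with an interval that crosses that line.

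Among Fzd1, Fzd2 and Fzd7 alone, the leading gene in control differed between stromal, epithelial and mesothelial cells, while in cKO Fzd1 led in both stroma and epithelium. In stroma Fzd1 took 64.1% of the 907 UMIs of these 3 genes in control and 58.2% of 3578 in cKO, while Fzd2 went from 14.9% to 29.0% and Fzd7 from 21.1% to 12.8%. In epithelial cells Fzd7 led these 3 in control with 46.1% and Fzd1 in cKO with 69.5%, both below the level of Fzd5 given further on. In mesothelial cells Fzd2 led in both libraries, with 57.1% and 56.5%. In muscle the 3 shares lay between 27.1% and 40.7% in both libraries with overlapping intervals, and in macrophages those of Fzd1 and Fzd7 overlapped too. Lymphoid cells held 1 UMI of the 3 genes in control and 4 in cKO, so these receptors were barely detected there.

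Stromal Fzd2 was followed into subsets of Pdgfra-gated cells, defined by at least 2 genes of 1 gene set and fewer than 2 of any other. The sets came from earlier results of these data. The subsets were unequally represented: Cilp, Sfrp4 and Gpr83 marked 43 control and 293 cKO cells, Hsd11b2, Rorb and Syt2 marked 3 and 137, Inmt, Myoc and Scara5 marked 70 and 11, Il6 and Cxcl5 marked 21 and 68, and Cyp26b1, Dio2 and Prrx2 marked 12 and 99. No set fitted 436 and 578 cells, and several sets fitted 36 and 283.

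Fzd2 varied widely between these subsets. In cKO it was 11.3 CPM in the Cilp subset, 7.75 in the Il6 subset, 62.0 in the Cyp26b1 subset and 69.5 in the Hsd11b2 subset. Control cells of the Cilp, Il6 and Cyp26b1 subsets held 4.38, 2.69 and 31.4 CPM, on 3, 1 and 7 UMIs. The ratio was 2.58 (0.841 to 12.9) in the Cilp subset and 1.97 (0.928 to 5.01) in the Cyp26b1 subset. Both intervals include 1, and the Il6 subset held too few UMIs to be compared. In the cells of no set it was 19.9 CPM in control and 30.1 in cKO, a ratio of 1.51 (1.18 to 1.95), smaller than the 2.43 over all stromal cells. In the cells of several sets it was 16.0 and 56.5 CPM, a ratio of 3.53 (2.00 to 6.88). The 209 CPM of the Inmt subset in cKO rested on 25 UMIs in 5 of 11 cells, against 13.7 CPM in control. The Hsd11b2 and Cyp26b1 subsets made up 9.33% and 6.74% of cKO stromal cells against 0.483% and 1.93% of control. The part of the stroma's makeup in the overall ratio was not tested.

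**Figure D3:**
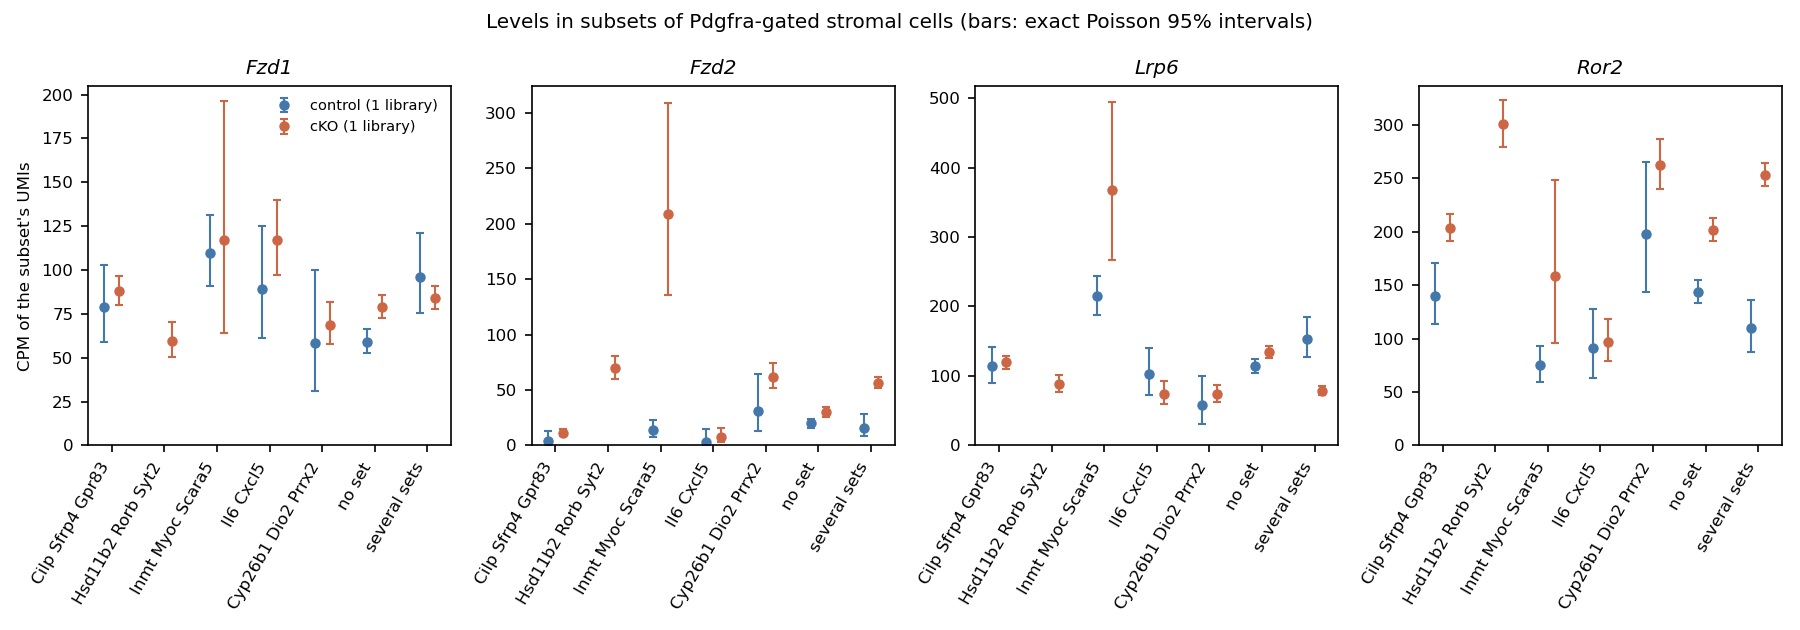
CPM (y axis, from 0) of Fzd1, Fzd2, Lrp6 and Ror2 in subsets of stromal cells (x axis), control in blue and cKO in orange, 1 library each, with exact Poisson 95% intervals. The control point of the Hsd11b2 subset (3 cells) is left out. Ror2 in cells of no set stood at 144 CPM in control and 202 in cKO, and Fzd2 at 19.9 and 30.1.

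Among the co-receptors Lrp6 was the main transcript everywhere. Lrp6 (ENSMUSG00000030201, chr6:134446476-134566965, minus strand, 23 exons) was highest in control macrophages at 183 CPM (165 to 204), followed by stromal cells at 129 (122 to 137), mesothelial cells at 109, muscle at 52.2, epithelial cells at 40.8 and lymphoid cells at 36.3. Macrophages lay above stroma by 1.42-fold (1.25 to 1.60), and mesothelial cells above muscle by 2.08-fold (1.23 to 3.49). The other neighbours did not differ beyond counting error.

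In cKO macrophages Lrp6 was 84.8 CPM (68.3 to 104), below mesothelial and stromal cells, though not apart from stroma beyond counting error (1.22-fold, 0.994 to 1.52). The ratio was 0.462 (0.363 to 0.583), on 355 and 92 UMIs. It was the only one of the 6 genes compared in macrophages at least 2-fold lower, where 4.31% of all 7911 genes were, and none was at least 2-fold higher, where 11% were. The share of macrophages with an Lrp6 UMI was 45.5% in control and 33.0% in cKO, and after thinning to 1000 UMIs it was 13.2% (9.06 to 18.2) and 11.7% (6.39 to 19.2). The intervals of the thinned shares overlap, and the log2 ratio of thinned sums was -0.51 in place of -1.11. Of 231 control and 112 cKO macrophages, 33 and 10 held 4 or more Lrp6 UMIs. cKO macrophages also held mast cell markers at 294 CPM against 9.30, and lymphatic endothelial markers at 318 against 63.6, and the part of these cells was not tested.

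Stromal Lrp6 was lower in cKO by a smaller margin, at 104 CPM (99.8 to 108) against 129, a ratio of 0.802 (0.746 to 0.862). Within stromal subsets the direction varied. The ratio was 1.18 (1.06 to 1.31) in cells of no set, 1.05 (0.830 to 1.35) in the Cilp subset and 0.514 (0.421 to 0.632) in cells of several sets. It was 1.71 (1.21 to 2.37) in the Inmt subset, on 235 and 44 UMIs. The intervals of the Hsd11b2, Il6 and Cyp26b1 subsets included 1. In epithelial cells the ratio was 0.918 (0.746 to 1.12), in muscle 1.34 (0.922 to 1.97), in lymphoid cells 1.40 (0.930 to 2.18) and in mesothelial cells 1.28 (0.770 to 2.16). The intervals of all 4 include 1. After thinning to 1000 UMIs, however, the lymphoid log2 ratio was 2.44 in place of 0.47.

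Lrp5 (ENSMUSG00000024913, chr19:3584828-3686564, minus strand, 23 exons), which can pair with the same Frizzled receptors, had its highest level in epithelial cells of both libraries. It stood at 18.8 CPM (16.7 to 20.9) in control and 13.1 CPM (9.39 to 17.9) in cKO epithelial cells, a ratio of 0.700 (0.491 to 0.975). The log2 ratio of -0.50 was -2.48 after thinning to 1000 UMIs, and past 2-fold lower under TMM scaling. The ratio was 0.0826 (0.00202 to 0.4995) in cells with 1 Epcam UMI, on 28 control UMIs and 1 cKO UMI. In those with more it was 0.821 (0.572 to 1.15). The next class was not apart beyond counting error in either library: epithelial cells lay 2.00-fold (0.960 to 5.02) above muscle in control and 1.59-fold (0.905 to 2.86) above lymphoid cells in cKO. Stromal cells held 8.32 and 6.66 CPM, and macrophages 1.03 and 4.61 CPM on 2 and 5 UMIs. Lrp5 made up 31.5% of the Lrp5 and Lrp6 UMIs in control and 26.0% in cKO epithelial cells, against 6.04% and 6.03% in stroma.

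Lymphoid Lrp5 rested on 2 UMIs in control and 20 in cKO, each in a cell of its own. The ratio was 3.31 (0.803 to 29.2). With Dvl1 it was 1 of 2 genes at least 2-fold higher of 5 compared in lymphoid cells, where 7.32% of all 9316 genes were. None of the 5 was at least 2-fold lower, where 3.08% were. Without exclusion of other gates the log2 ratio of Lrp5 turned to -0.23. The lymphoid class also held B or plasma cell markers at 466 CPM in cKO against 5.01 in control, and the part of these in Lrp5 and Dvl1 was not tested.

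Ror2 (ENSMUSG00000021464, chr13:53109312-53286124, minus strand, 9 exons), whose promoter is printed above, was the most abundant of the 10 genes in cKO stroma. It stood at 130 CPM (122 to 138) in control and 228 CPM (222 to 234) in cKO stromal cells, on 1045 and 5823 UMIs. The ratio of 1.76 (1.65 to 1.88) did not reach 2-fold, and its log2 value of 0.81 ranged from 0.75 to 0.89 over all 12 alternatives. None of these adjusted for the makeup of the stroma, whose part in the ratio was not tested. A Ror2 UMI was found in 50.4% of control and 74.9% of cKO stromal cells, and 101 of 621 and 575 of 1469 held 4 or more. After thinning to 1000 UMIs the shares were 11.8% (9.34 to 14.6) and 19.96% (17.9 to 22.1), whose intervals do not overlap, and the lymphoid shares were 0% in both.

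Ror2 was compared within the stromal subsets too. In cells of no set Ror2 was 144 CPM (133 to 155) in control and 202 (191 to 213) in cKO, a ratio of 1.41 (1.28 to 1.54). In the Cilp subset it was 140 and 204 CPM, a ratio of 1.45 (1.18 to 1.81), and in cells of several sets 109 and 253 CPM, a ratio of 2.31 (1.86 to 2.92). The Il6 subset held 91.6 and 96.9 CPM (1.06, 0.711 to 1.61) and the Cyp26b1 subset 198 and 263 CPM (1.33, 0.976 to 1.85), and both intervals include 1. The Inmt subset held 74.9 and 159 CPM (2.12, 1.22 to 3.53), on 82 and 19 UMIs. The highest level of any subset was 301 CPM (279 to 323) in the Hsd11b2 cells of cKO, which were almost unrepresented in control. The ratio there, 2.29 (1.05 to 6.27), rested on 6 control UMIs.

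Outside stroma Ror2 was highest in muscle. Muscle cells held 126 CPM (102 to 154) in control and 130 (113 to 148) in cKO, a ratio of 1.03 (0.806 to 1.33), so that control muscle and stroma did not differ beyond counting error but cKO stroma lay 1.76-fold (1.53 to 2.02) above cKO muscle. No gene of the 8 compared in muscle passed 2-fold, where 8.72% of all 8942 genes were higher and 3.72% lower. Without exclusion of other gates, however, the muscle log2 ratio of Ror2 was 1.12 in place of 0.04. After thinning to 1000 UMIs that of Dvl3 was 1.06 in place of 0.14. Mesothelial cells held Ror2 at 48.3 and 43.0 CPM on 12 and 13 UMIs. Subtraction of the cell-free profile left 49.8 and 25.4 CPM there and took the log2 ratio from -0.17 to -0.93, while without exclusion of other gates it was 0.52. Epithelial cells held 14.4 CPM (12.7 to 16.4) and 22.0 (17.1 to 27.9), a ratio of 1.53 (1.15 to 2.01). The epithelial log2 ratio of 0.62 was 0.10 under TMM scaling, 1.80 without exclusion of other gates and -0.51 on the 20 UMIs left by thinning, and in cells with 1 Epcam UMI the ratio was 0.925 (0.352 to 2.19). Macrophages held 5 and 2 UMIs, and lymphoid cells 0 and 10, with all 10 in 1 cell. Cell-free RNA, profiled in barcodes with at most 100 UMIs, held Ror2 at 35.7 CPM in control and 111 in cKO. Its subtraction left 2.05 CPM in control macrophages, 0 in cKO macrophages and 0 in cKO lymphoid cells. That subtraction took the highest cell-free share that markers of another class allow. The actual part of cell-free RNA in these UMIs was not tested.

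Ror1 (ENSMUSG00000035305, chr4:100095791-100444765, plus strand, 9 exons), the close relative of Ror2, was a rare stromal transcript. It stood at 3.97 CPM (2.72 to 5.61) in control and 4.31 CPM (3.54 to 5.19) in cKO stroma, a ratio of 1.08 (0.726 to 1.66). Epithelial and muscle cells held 1 to 4 UMIs a library, and macrophage, lymphoid and mesothelial cells held none, which in mesothelial cells gives limits of 12.1 and 9.93 CPM by 3 counts and exact upper ends of 14.9 and 12.2. The counts of Ror1 may include reads of 2 overlapping genes, Gm12701 on the same strand and Gm12706 on the other.

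Dishevelled transcripts were found in every class. Summed over Dvl1, Dvl2 and Dvl3, every class held between 56.4 and 119 CPM in both libraries, lymphoid cells included. Dvl1 took 65.2% (62.8 to 67.6) of these UMIs in control epithelial cells, and Dvl3 54.7% (47.1 to 62.1) in cKO muscle and 45.7% (38.8 to 52.7) in cKO lymphoid cells, each apart from the other 2 genes. In macrophages no lead was clear: Dvl2 and Dvl3 took 48.1% (39.9 to 56.2) and 36.4% (28.8 to 44.5) in control, and 36.8% and 37.9% in cKO. In control lymphoid cells Dvl3 at 50% and Dvl2 at 32% overlapped too.

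Dvl1 (ENSMUSG00000029071, chr4:155847402-155859303, plus strand) was highest in control epithelial cells at 58.7 CPM (55.1 to 62.5), but muscle at 44.2 was not apart from it beyond counting error (1.33-fold, 0.940 to 1.94), nor stroma at 41.5 from muscle. In the same library stroma lay 3.34-fold (2.21 to 5.29) above macrophages at 12.4 CPM, and lymphoid cells held 11.3 CPM. In cKO the epithelial class came after mesothelial, stromal and muscle cells, at 43.0, 36.9 and 34.9 CPM, with no neighbours apart. In cKO epithelial cells Dvl1 was 32.2 CPM (26.1 to 39.2), a ratio of 0.548 (0.441 to 0.675). The log2 ratio of -0.86 was short of 2-fold, but it was past it under TMM scaling (-1.38) and as a mean over cells of each cell's CPM (-1.70). The ratio was below 1 in cells with 1 Epcam UMI (0.180, 0.0755 to 0.367) and in those with more (0.616, 0.490 to 0.766), and the sign held under all 12 alternatives.

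In lymphoid cells Dvl1 stood at 11.3 CPM (5.15 to 21.4) on 9 UMIs in control and 23.6 CPM (17.9 to 30.6) on 57 UMIs in cKO, a ratio of 2.09 (1.03 to 4.81). The lower limit lies close to 1, and without exclusion of other gates the log2 ratio was 0.31 in place of 1.00. Under TMM scaling, too, it was short of 2-fold. Most of these cells had Cd3e without Ncr1, 139 of 158 and 395 of 435, and in them the ratio was 1.78 (0.866 to 4.11). In mesothelial cells the counts were 1 and 13 UMIs, too few to be compared. Stromal Dvl1 was 41.5 and 36.9 CPM, a ratio of 0.890 (0.785 to 1.01).

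Dvl2 (ENSMUSG00000020888, chr11:70000595-70012301, plus strand) had the macrophage as its highest class, at 38.2 CPM (30.02 to 48.0) in control and 29.5 (20.2 to 41.6) in cKO, and the epithelial cell as its lowest, at 8.96 and 10.2 CPM. Macrophages were not apart from the next class in either library (1.58, 0.693 to 4.45, over mesothelial cells in control and 1.27, 0.796 to 2.00, over lymphoid cells in cKO), nor epithelial cells from muscle in cKO. The ratios of Dvl2 ran from 0.673 (0.343 to 1.36) in muscle to 1.20 (0.990 to 1.46) in stroma, and every interval included 1.

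Dvl3 (ENSMUSG00000003233, chr16:20516982-20534010, plus strand) was the most even of the 3, from 22.3 CPM in control epithelial to 59.5 in cKO muscle cells. In control no neighbours in its order of classes were apart beyond counting error. Its ratio was 1.56 (1.25 to 1.94) in epithelial cells, from 22.3 CPM (20.1 to 24.7) to 34.8 (28.5 to 42.1), opposite in direction to Dvl1 in the same cells. In cells with 1 Epcam UMI, however, the ratio was 0.991 (0.503 to 1.86), against 1.62 (1.27 to 2.04) in those with more, and under TMM scaling the log2 ratio was 0.13 in place of 0.65. Epithelial Dvl1 and Dvl3 therefore stood at 65.2% and 24.8% of Dishevelled UMIs in control and at 41.7% and 45.1% in cKO. Dvl1, Dvl2 and Dvl3 each overlap a gene on the other strand, Tas1r3, Acadvl and Gm16618, and Dvl2 also overlaps Mir324 on the same strand. The strand setting of the counting is not given in the sources used here.

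**Figure D4:**
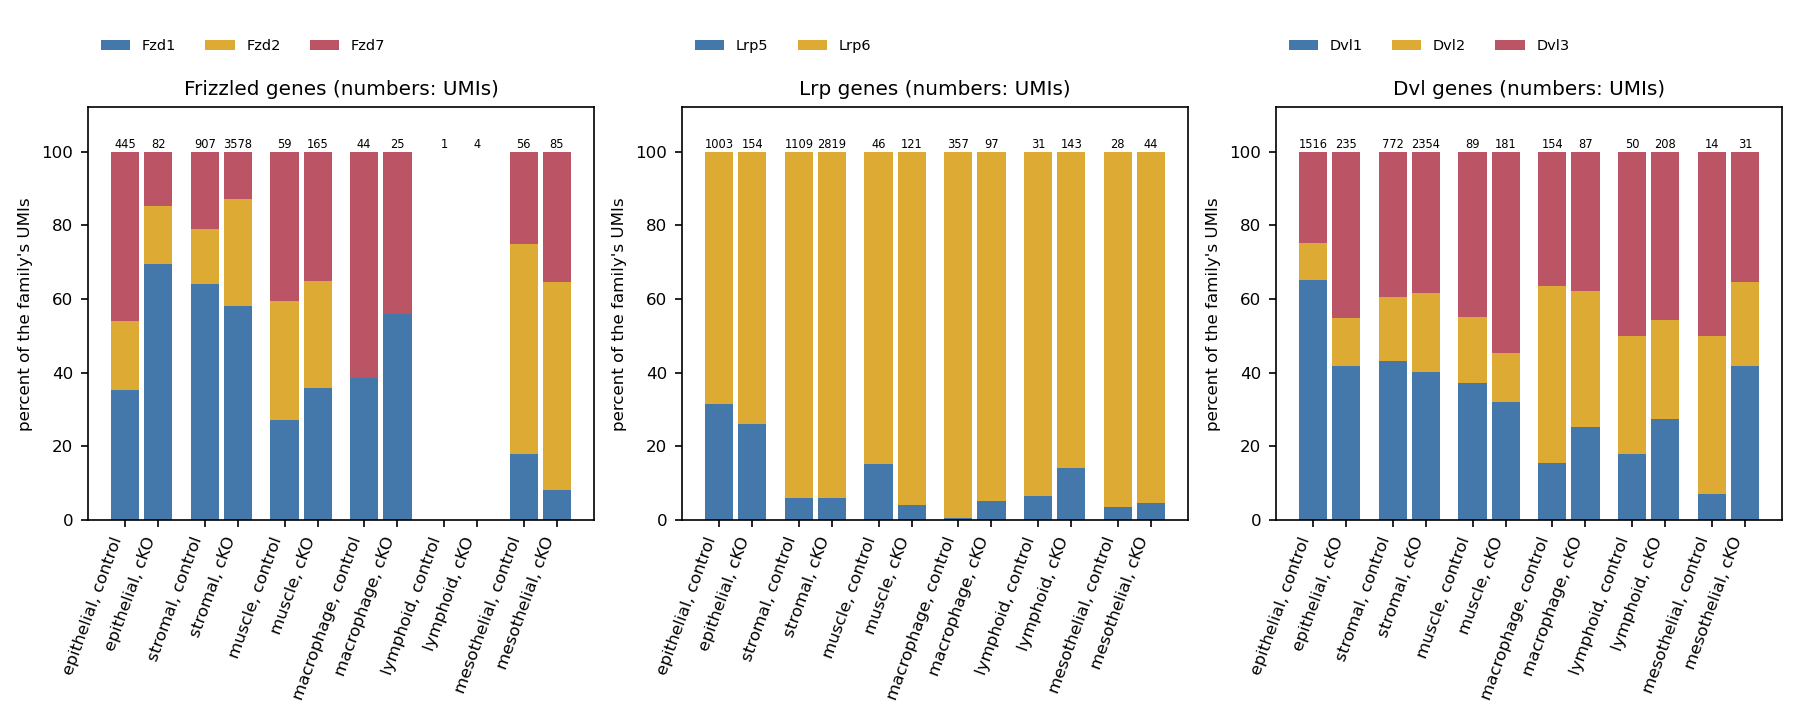
Share (percent, y axis) of each gene in the UMIs of its family, for each class and library (x axis), 1 library per bar. Numbers above the bars are the family's UMIs, and bars with under 10 UMIs are not drawn. Dvl1 falls from 65.2% to 41.7% in epithelial cells and Fzd2 goes from 14.9% to 29.0% in stroma.

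Whether receptor, co-receptor and adaptor were found in the same cell was limited by depth. In stroma 30.9% of control and 37.6% of cKO cells held UMIs of a Frizzled, an Lrp and a Dishevelled gene. Thinned to 3000 UMIs, a depth that 516 control and 1366 cKO stromal cells reached, the shares were 2.13% (1.07 to 3.78) and 1.90% (1.25 to 2.78), and no lymphoid cell of 128 and 385 did. The exact upper ends for these lymphoid cells were 2.84% and 0.954%, and by 3 counts 2.34% and 0.779%, and they limit cells with such UMIs at that depth, not cells expressing the genes. A Ror and a Frizzled gene were found together in 6.98% (4.93 to 9.53) of control and 13.5% (11.8 to 15.5) of cKO stromal cells at that depth, where 27.1% and 43.4% held a Ror gene and 27.5% and 30.7% a Frizzled gene.

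**Figure D5:**
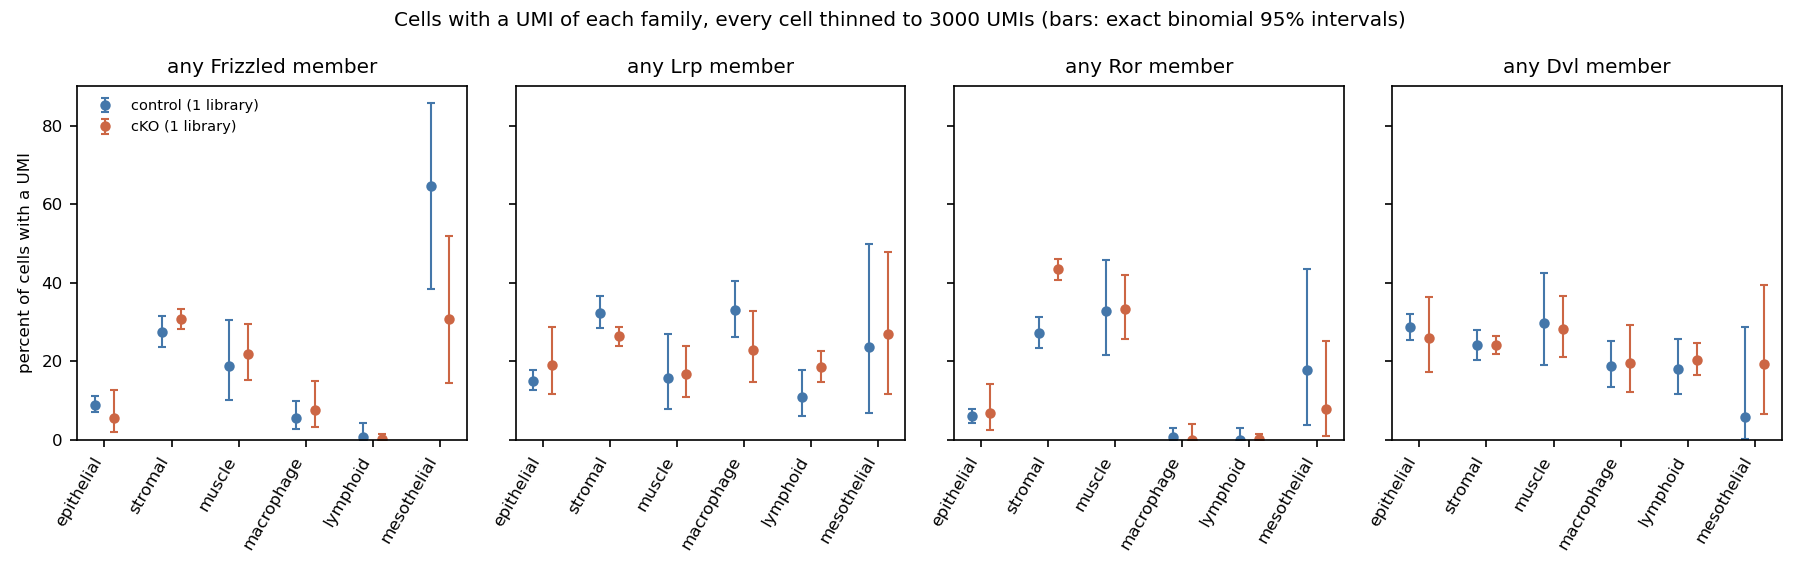
Percent of cells (y axis, from 0) with a UMI of any of the Frizzled, Lrp, Ror or Dvl genes in each class (x axis), every cell thinned to 3000 UMIs, control in blue and cKO in orange, 1 library each, with exact binomial 95% intervals. In stroma 27.1% of control and 43.4% of cKO cells held a Ror UMI, while 24.0% of both held a Dvl UMI.

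Over the 12 class sums of both libraries, the levels of Fzd1 and Ror2 were the most alike among the 10 genes, with Pearson's r = 0.87 of log2(CPM + 1). Lrp5 and Dvl2 were the least alike, with r = -0.72. These points share libraries and class totals, and the values are a description. Among 11373 genes with at least 200 UMIs, the genes most like Ror2 were Fam189a2 (0.97), Rock2 (0.96), a kinase of the actomyosin cytoskeleton, and Ltbp1 (0.96), a binding protein of latent TGF-beta. Those most like Fzd2 were Mex3a (0.98), Gulp1 (0.97) and Gm26802 (0.97), and the gene most like Lrp6 was Lrpap1 (0.94), the chaperone of the LDL receptor family.

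A list of Wnt ligands and R-spondins held several genes past 2-fold in stroma and epithelium. R-spondins bind Lgr receptors with Znrf3 and Rnf43, and not the receptors described here. Wnt5a, the ligand of Ror2, was 26.7 CPM in control and 72.3 in cKO stroma, a ratio of 2.71 (2.35 to 3.13). It was also higher in epithelial cells (13.1 and 31.9 CPM, 2.44-fold, 1.90 to 3.11) and in muscle (12.05 and 34.3 CPM, 2.84-fold, 1.40 to 6.53). Of 8 genes of the list compared in stroma, 3 were at least 2-fold higher, Wnt5a, Wnt5b and Wnt16, and 1 was lower, Rspo1 (0.409, 0.283 to 0.594), where 6.24% of all genes were higher and 6.46% lower, with a median log2 ratio of 0.62 against -0.02 over all genes. Of 6 in epithelial cells, Wnt5a, Wnt7a (2.69, 2.28 to 3.16) and Wnt11 were higher and Wnt4 (0.420, 0.327 to 0.531), a regulator of gland formation, was lower.

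The list of other receptors and receptor regulators held 17 genes. Of 13 compared in epithelial cells, Fzd3, Ptk7 and Znrf3 were at least 2-fold higher, at ratios of 2.22, 2.31 and 2.25, and Fzd4 and Fzd5 were lower. Fzd5 was the most abundant epithelial Frizzled gene named here, at 84.9 CPM in control and 33.8 in cKO (0.398, 0.323 to 0.487). In stroma only Fzd9 of 13 passed 2-fold, at 0.315 (0.178 to 0.559) on 27 UMIs a library. In macrophages 3 of 4 were higher, Ryk, Kremen1 and Znrf3, and in lymphoid cells 2 of 5, Kremen1 and Rnf43. In muscle Ptk7 was higher and Fzd4 lower of 10, and in mesothelial cells Fzd5 was higher of 5. Of these only Kremen1 rested on 50 or more UMIs. Kremen1, which with Dickkopf proteins removes Lrp6 from the surface, stood at ratios of 2.02 (1.27 to 3.21) in macrophages and 2.65 (1.20 to 6.88) in lymphoid cells.

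The 17 partners of Dishevelled and members of the destruction complex held few past 2-fold. Epithelial Csnk1e, a kinase of Dishevelled, was 353 CPM in control and 159 in cKO (0.451, 0.410 to 0.495), and Invs was higher (2.21, 1.21 to 3.90), of 12 compared. In stroma Nkd2, a Dishevelled-binding inhibitor, was lower (0.332, 0.248 to 0.446), the only one of 16. In muscle Nkd1 and Nkd2 were at least 2-fold higher, 2 of 15. In macrophage, lymphoid and mesothelial cells 0 of 8, 0 of 11 and 0 of 9 passed 2-fold. The shares of all genes at least 2-fold higher and lower, beside which these list counts stand, were 25.5% and 11% in epithelial cells, 6.24% and 6.46% in stroma, 8.72% and 3.72% in muscle, 11% and 4.31% in macrophages, 7.32% and 3.08% in lymphoid cells, and 10.6% and 3.97% in mesothelial cells.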

How the data were processed

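The authors deposited raw UMI counts per gene and barcode for 1 control and 1 cKO library, as unfiltered matrices. Per the file headers they were written by Cell Ranger 4, while the submitters' processing notes name Cell Ranger 6.1.1 and mm10, and this difference was not resolved. The libraries held 45035801 and 57145553 UMIs. Of 32285 gene identifiers, 32158 (99.6%) were in GENCODE M21 on GRCm38, used only for positions. The 10 genes, the gene lists and the stromal sets were chosen with earlier results of these data known. Counts were summed over the cells of each gated class. The ratio of cKO to control CPM has an exact conditional binomial interval, and shares have exact Clopper-Pearson intervals. All are at 95% and cover counting error only. Log2 values carry a pseudocount of 0.5 UMI. With 1 library per group no p-value was computed. Genes counted as past 2-fold had at least 20 UMIs over both libraries in the class. Named genes were the 10 members in every class, list genes past 2-fold with at least 50 UMIs, and the 3 genes most like each member. Where a count was small, list genes with fewer UMIs are named too, chosen after their values were seen. Doublets were not called in the main analysis. The gates leave out cells with gate genes of several classes, but can keep doublets in which only 1 class's gate gene was detected. The script for ratios was tested on simulated data. Python 3.11.15, numpy 2.4.6, scipy 1.17.1, scanpy 1.11.5 and edgeR 4.0.16 (TMM factors only) were used.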

Additional observations from a re-analysis of the deposited data

Results flagged for a closer look

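Signals outside the 6 compared classes were looked at for each of the 10 genes. Fzd2 in cell-free barcodes stood at 4.27 CPM in control and 23.6 in cKO, a ratio of 5.54 (2.86 to 11.7), on 11 and 54 UMIs. Ror2 in cell-free barcodes stood at 35.7 and 111 CPM, a ratio of 3.11 (2.44 to 3.998). Ror2 in cells with gate genes of several classes stood at 56.1 and 147 CPM, a ratio of 2.62 (2.27 to 3.05). In the cells with several gate genes, epithelial markers summed to 5492 CPM in control and 1063 in cKO and stromal markers to 6176 and 9604. In cell-free barcodes the epithelial markers summed to 4656 and 613 CPM and the stromal to 1686 and 3990. The part of these shifts was not tested. The 3 ratios are listed because they lie above the control library in material that the comparisons leave out. Dvl1 went in opposite directions in lymphoid and epithelial cells, and its log2 ratio in lymphoid cells exceeded that in epithelial cells by 1.86. The difference between these classes was not tested, since each rests on 1 library per group.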

How the results depend on the processing

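The count of 4 pairs at least 2-fold higher and 2 at least 2-fold lower in cKO was recomputed under 13 other settings. With gates that do not exclude other gate genes there were 7 higher and 4 lower of 54 pairs. Gating by the gate gene with most UMIs gave 1 lower. TMM scaling gave 2 higher and 4 lower, and so did the mean over cells of each cell's CPM. Thinning each cell to 1000 UMIs gave 2 higher of only 21 pairs with enough UMIs, and a fold of 1.5 gave 10 higher. The other settings stayed within 1.5 times of both counts. Of single log2 ratios past 2-fold, 3 changed sign: Fzd1 in epithelial cells (-0.14 as a mean over cells), Fzd7 in epithelial cells (0.54 without exclusion) and Lrp5 in lymphoid cells (-0.23 without exclusion). The cause was not tested. TMM shifted all epithelial log2 ratios by -0.52 and macrophage ratios by -0.23, and lowered lymphoid ratios by 0.11. Under it Fzd1 in epithelial and Dvl1 in lymphoid cells were no longer 2-fold higher. Lrp5 and Dvl1 in epithelial cells became at least 2-fold lower. Leaving out cells with a doublet score over 0.25, 42 in control and 60 in cKO, moved mesothelial Fzd7 from 0.79 to -0.84. No paired analysis was possible because each group is 1 library. Depth limits Ror1 outside stroma, all Frizzled genes in lymphoid cells and every mesothelial ratio.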

Other observations

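Cells that held no gate gene, 1201 in control and 1998 in cKO, were left out of every comparison and can hold several cell types. Their summed epithelial markers were 1710 CPM in control and 90.6 in cKO and their lymphoid markers 455 and 1670 CPM, and the part of this shift in the values below was not tested. In them Lrp6 was the most abundant of the 10 genes, at 82.8 CPM (75.1 to 91.1) in control and 81.0 CPM (76.0 to 86.3) in cKO, followed by Dvl1 at 48.7 CPM in control and Ror2 at 47.1 CPM in cKO. Fzd7 was lower in cKO, at 12.6 against 25.9 CPM, a ratio of 0.488 (0.383 to 0.621), and so were Lrp5 (0.447, 0.286 to 0.698) and Dvl1 (0.646, 0.549 to 0.762). Dvl3 was higher, at 40.3 against 28.2 CPM, a ratio of 1.43 (1.18 to 1.73).

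Summed over all cells, Ror2 was 48.5 CPM in control and 146 in cKO, a ratio of 3.01 (2.86 to 3.17), and Fzd2 had a ratio of 2.59 (2.33 to 2.89). Within stroma the same ratios were 1.76 and 2.43, and the stromal class made up 17.0% of control and 29.7% of cKO cells. Lrp5, whose own highest class was epithelial, had a ratio of 0.491 (0.426 to 0.566) over all cells and 0.700 within epithelial cells. Epithelial cells made up 25.9% of control and 2.08% of cKO cells.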
